A study of Sus scrofa with 16 samples.

Results

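The genes described here are the nuclear-encoded subunits of respiratory complexes III and IV and of ATP synthase in the pituitary of Złotnicka White (ZW) pigs. They were chosen by gene symbol alone. Every gene whose symbol in the deposited comparison starts with UQCR, with ATP5, or with COX4I, COX5, COX6, COX7 or COX8 was taken, and at least 10 counts in at least 8 pigs were required. All 26 matching genes passed, out of 25880 genes in the count table and 13667 that met the same count minimum. Of the 26, 4 belong to complex III, 12 to complex IV and 10 carry an ATP synthase symbol. The rule uses no measured value beyond the count minimum, but it was set with earlier results of these data known.

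Whole pituitaries of 16 unrelated ZW gilts (females) were sequenced, 8 with low feed conversion (LFC) and 8 with high feed conversion (HFC). All gilts shared the housing and feeding of 1 test station, carried the label day 180 and were slaughtered at about 100 kg. By the paper, the HFC gilts spent longer in the test, gained less per day and had less meat than the LFC gilts. Their fat was thicker at several points. Feed conversion cannot be told apart from these traits in these groups. Each pig gave 1 library of reads whose strand was not kept. The values are reads counted per gene, and levels are given as CPM, counts relative to library size after TMM scaling.

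Complexes III and IV pass electrons from ubiquinol to cytochrome c and on to oxygen while moving protons out of the mitochondrial matrix, and ATP synthase uses the returning protons to make ATP. Each of these machines is built from subunits of 2 genomes. Cytochrome b of complex III, the catalytic centre of complex IV and part of the proton channel of ATP synthase are encoded in mitochondrial DNA. The remaining subunits are encoded in the nucleus, made in the cytosol and imported. Hormone-secreting cells such as those of the pituitary depend on this ATP for synthesis and release of their granules. Several subunits of complex IV also exist as tissue-restricted copies, known best from heart and skeletal muscle.

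Library totals ran from 6258650 to 8402619 counts in LFC (median 7803047) and from 6010629 to 11794256 in HFC (median 9027332). The share of counts on the 26 genes together was 0.412% ± 0.0443 (SD, n = 8) in LFC, ranging from 0.351 to 0.482%, and 0.362% ± 0.0541 (SD, n = 8) in HFC, ranging from 0.314 to 0.476%. Of the 26, 25 had at least 100 counts in every pig, and the exception, COX4I2, had 14 to 40 counts. As whole glands were used, fewer cells of a type and less RNA per cell cannot be told apart. Pituitary identity was checked on hormone genes: in every pig the sum of PRL and DRD2, the lactotroph markers, was at least 15408 CPM and that of POMC, TBX19 and CRHR1, the corticotroph markers, was at least 8599 CPM.

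No nuclear subunit passed the thresholds of the study, an adjusted p up to 0.05 with a 1.3-fold difference or more, in the comparison of HFC with LFC pigs. Of all 13667 genes tested, 0% passed as well by edgeR's quasi-likelihood test, and the adjusted p of the 26 ran from 0.397 to 0.972 (edgeR, Benjamini-Hochberg adjustment). DESeq2, the tool named in the study's methods, called 29 genes, or 0.216% of the 13402 with an adjusted p. None of the 29 was a nuclear subunit (smallest adjusted p of a subunit 0.280). With the same tool and thresholds, the paper reports many more differing genes in ZW pigs. The paper's own comparison of ZW pigs lists COX6A1, COX7A1, COX7A2 and COX7C among its differing genes, under oxidative phosphorylation. It also lists there CYCS and the complex III gene UQCRB, which are not among the 26 genes. Why the results differ was not tested. What the subunits had in common was their direction. The fitted log2 fold change was below 0, meaning lower in the HFC pigs, for 26 of 26 genes, against 48.9% of all genes tested. The values ran from -0.51 for COX7A1 to -0.01 for ATP5A1 with a median of -0.21, against a median of 0.0067 over all genes, of which 15.9% lay at or under the subunits' median.

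None of these differences separated the 2 groups of pigs. The standard errors of the 26 log2 fold changes were between 0.080 and 0.28, the median fold difference was 1.15, and only COX7A1 reached a 1.3-fold difference. The ranges of the 2 groups overlapped for all 26 genes, but the share of all genes tested with such an overlap was not counted. A nominal (unadjusted) p up to 0.05 in the lower direction was reached by 2 of the 26, COX7A1 and UQCRQ, which is 7.69% of them against 3.47% of all genes. In the higher direction it was reached by 0 of the 26 against 8.01% of all genes (edgeR's quasi-likelihood test, unadjusted). At least 7 of the 8 HFC pigs lay under the LFC median for 16 of the 26 genes, and this held for 13.5% of all genes tested. The 26 genes were measured in the same 16 pigs and moved together from pig to pig, so they are not 26 separate observations of a difference.

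**Figure D1:**
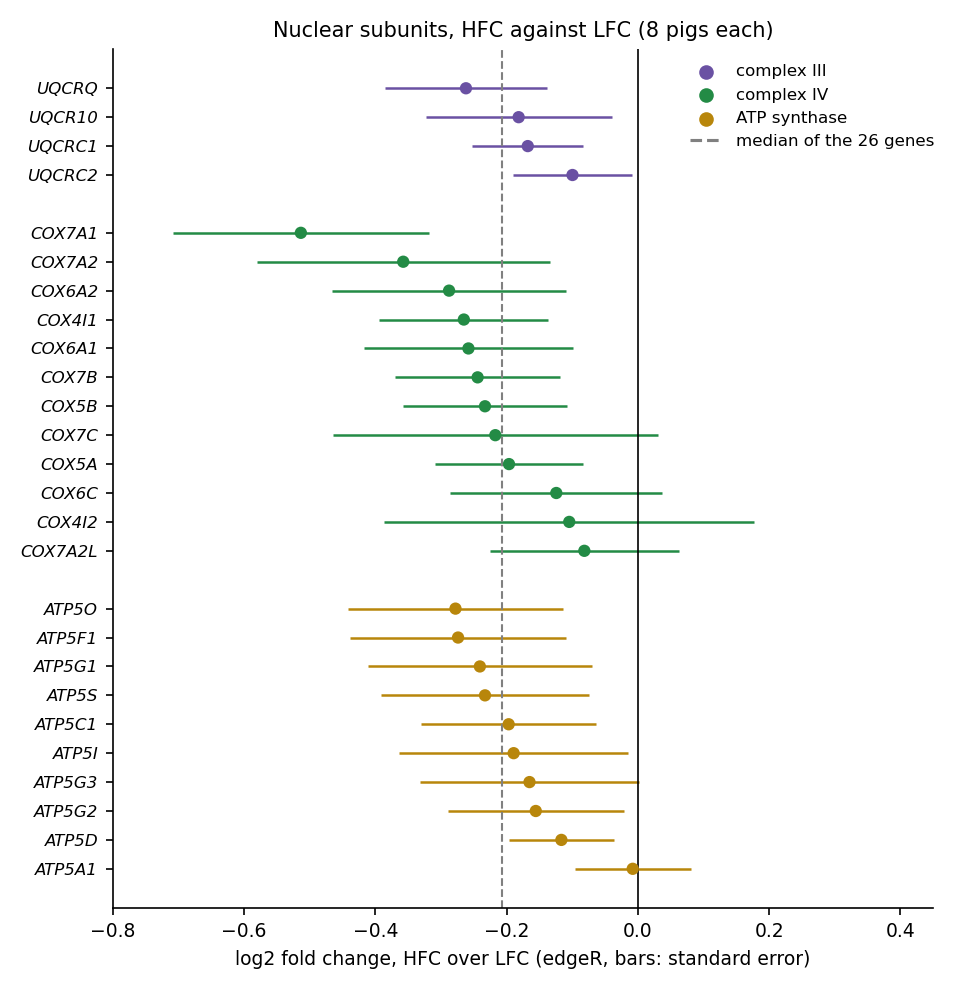
Fitted log2 fold change of each of the 26 nuclear subunits (x axis, HFC over LFC, 8 pigs each; bars are standard errors; genes ordered within complexes on the y axis), with a dashed line at their median. Every point lies left of 0, from -0.51 for COX7A1 to -0.01 for ATP5A1, and each adjusted p was at least 0.397 in edgeR.

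In complex III the median log2 fold change of the 4 subunits was -0.17, with a range of -0.26 to -0.10. UQCRQ (ENSSSCG00000014289, Sscrofa11.1 chromosome 2, 135186454 to 135188293) encodes a small subunit that sits beside cytochrome b. Its lowest, median and highest levels were 70.7, 90.7 and 112 CPM in LFC and 59.5, 70.3 and 107 CPM in HFC. The HFC pigs were low apart from HFC replicate 5, which held the 107 CPM, and 7 of 8 were under the LFC median. The means were 88.9 ± 15.3 CPM (SD, n = 8) in LFC and 74.2 ± 14.6 CPM (SD, n = 8) in HFC, for a log2 fold change of -0.26 (standard error, SE, 0.12) with an adjusted p of 0.431 (edgeR, Benjamini-Hochberg adjustment). Reads of UQCRQ may include reads of GDF9, since 31.1% of its span is shared with that gene, which had a log2 fold change of -0.13 (SE 0.07).

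The core subunits UQCRC1 and UQCRC2 form the large domain of complex III that faces the matrix. UQCRC1 (ENSSSCG00000011356, chromosome 13, 31294951 to 31308671) had 118, 147 and 160 CPM (lowest, median, highest) in LFC and 110, 128 and 147 CPM in HFC. It varied little within the groups, so that its log2 fold change of -0.17 had an SE of only 0.08 and an adjusted p of 0.438 (edgeR, Benjamini-Hochberg adjustment). UQCRC2 (ENSSSCG00000007845, chromosome 3, 24197743 to 24228824) had 112, 130 and 139 CPM in LFC and 104, 112 and 160 CPM in HFC. The highest of these was again HFC replicate 5, and the log2 fold change was -0.10 (SE 0.09). UQCR10, a small subunit next to cytochrome c1, had 60.7 ± 9.21 CPM (SD, n = 8) in LFC and 53.6 ± 14.4 CPM (SD, n = 8) in HFC, with a log2 fold change of -0.18 (SE 0.14).

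In complex IV the median log2 fold change of the 12 subunits was -0.24, and the values lay between -0.51 and -0.08. COX7A1 (ENSSSCG00000037792, chromosome 6, 45517229 to 45520721), the copy of subunit 7a known best from muscle, had the largest difference of the 26. Its levels were 26.8, 39.3 and 75.5 CPM (lowest, median, highest) in LFC and 20.2, 27.7 and 49.996 CPM in HFC. LFC replicate 4 and HFC replicate 5 were the highest pigs of their groups and the other HFC pigs reached at most 35.0 CPM, within the LFC range. With means of 43.0 ± 14.7 and 30.2 ± 9.06 CPM (SD, n = 8 each), the log2 fold change was -0.51, its SE 0.19 and its adjusted p 0.397 (edgeR, Benjamini-Hochberg adjustment; unadjusted p = 0.0166). Of its span, 39.6% is shared with CAPNS1, which had a log2 fold change of the opposite sign, 0.27 (SE 0.10).

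The other tissue-restricted copies had fewer counts. COX6A2 (ENSSSCG00000036789), the muscle copy of subunit 6a, had 16.3, 21.9 and 40.2 CPM in LFC and 15.8, 18.2 and 31.8 CPM in HFC, and its log2 fold change of -0.29 had an SE of 0.18 (adjusted p = 0.496, edgeR, Benjamini-Hochberg adjustment). COX4I2 (ENSSSCG00000038384), the copy of subunit 4 known from lung and oxygen-sensing cells, had 1.74, 2.89 and 4.33 CPM in LFC and 1.26, 2.56 and 4.83 CPM in HFC. At so few counts its log2 fold change of -0.10 carried an SE of 0.28, and its whole span lies inside that of BCL2L1. Muscle markers were near the lower limit of the data: ACTA1 had 5.36 ± 1.69 CPM (SD, n = 8) in LFC and 4.60 ± 1.72 CPM (SD, n = 8) in HFC (log2 fold change -0.22, SE 0.23), CKM had 1.163 ± 0.561 CPM (SD, n = 8) in LFC and 1.399 ± 0.520 CPM (SD, n = 8) in HFC (0.27 on the log2 scale, SE 0.32), TNNT3 had at most 1 count in any pig and TNNC2 at most 2. Of the 9 muscle markers listed, only these 4 were found by name. The part of muscle cells in the levels of COX7A1 and COX6A2 was not tested further.

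COX4I1 and COX5A, which bind each other early in assembly of the enzyme, and the zinc-binding subunit COX5B had fold changes close to the median of complex IV. COX4I1 (ENSSSCG00000029034, chromosome 6, 3131019 to 3137482) had 208, 287 and 365 CPM in LFC and 188, 233 and 342 CPM in HFC. HFC replicate 5 again held the highest HFC value, and the group means were 293 ± 51.3 and 244 ± 46.3 CPM (SD, n = 8 each). The log2 fold change was -0.27 (SE 0.13) with an adjusted p of 0.437 (edgeR, Benjamini-Hochberg adjustment). COX5B (ENSSSCG00000008195, chromosome 3, 56629272 to 56632180) had 99.5, 123 and 159 CPM in LFC and 86.0, 103 and 155 CPM in HFC, with a log2 fold change of -0.23 (SE 0.12). For COX5A (ENSSSCG00000024316, chromosome 7, 58622331 to 58644021) the levels were 55.9, 60.4 and 85.8 CPM in LFC and 43.3, 58.3 and 70.6 CPM in HFC, and the log2 fold change was -0.20 (SE 0.11). COX7B (ENSSSCG00000032129, chromosome X, 61962379 to 61970160), an accessory subunit, had 156 ± 27.6 CPM (SD, n = 8) in LFC and 132 ± 24.5 CPM (SD, n = 8) in HFC, with a log2 fold change of -0.24 (SE 0.13).

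The log2 fold changes of the other accessory subunits of complex IV had larger standard errors. COX7A2, the widely expressed copy of subunit 7a, had 87.5, 139 and 229 CPM in LFC and 71.3, 100.0 and 221 CPM in HFC, with a log2 fold change of -0.36 (SE 0.22). COX6A1, the widely expressed copy of 6a, had one of -0.26 (SE 0.16). Of the span of COX6A1, 63.8% is shared with GATC. COX7C had the widest spread of these, from 187 to 501 CPM in LFC and from 113 to 503 CPM in HFC, with a log2 fold change of -0.22 (SE 0.25). In COX6C (log2 fold change -0.12, SE 0.16), LFC replicate 6 had 75.8 CPM and HFC replicate 1 had 78.3 CPM, while the other 14 pigs had 117 to 185 CPM, and LFC replicate 6 was above the 16-pig median for 24 of the 26 subunits. COX7A2L (ENSSSCG00000008466), a paralogue of subunit 7a that joins complexes III and IV into supercomplexes, had the smallest difference in this complex, with 193 ± 39.2 CPM (SD, n = 8) in LFC, 183 ± 43.1 CPM (SD, n = 8) in HFC and a log2 fold change of -0.08 (SE 0.14).

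**Figure D2:**
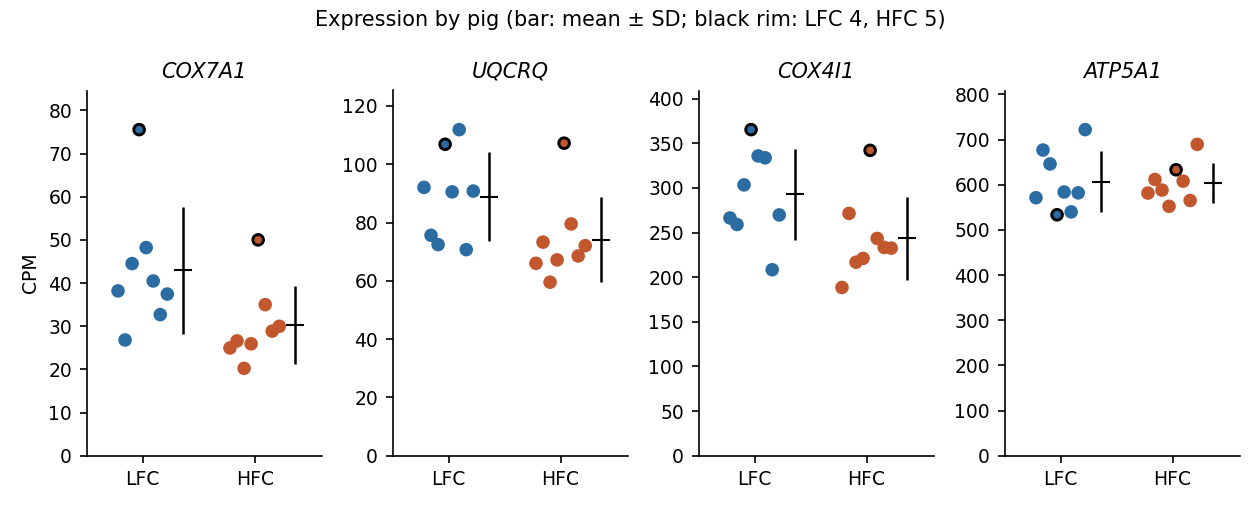
CPM in each pig (y axis, starting at 0; points are pigs, bars mean ± SD, 8 pigs per group on the x axis) for COX7A1, UQCRQ, COX4I1 and ATP5A1, with black rims on LFC replicate 4 and HFC replicate 5. HFC replicate 5 stands above its group for COX7A1, UQCRQ and COX4I1 (49.996, 107 and 342 CPM), and the groups lie side by side for ATP5A1.

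In ATP synthase the median log2 fold change of the 10 genes was -0.19, with a range of -0.28 to -0.01. ATP5O (ENSSSCG00000012042, chromosome 13, 197509331 to 197519588) encodes OSCP, the subunit of the peripheral stalk that holds the catalytic head in place. Its levels were 121, 153 and 234 CPM in LFC and 92.8, 129 and 232 CPM in HFC. The 2 top values belonged to LFC replicate 4 and HFC replicate 5, and the log2 fold change was -0.28 (SE 0.16) with an adjusted p of 0.479 (edgeR, Benjamini-Hochberg adjustment). ATP5F1 (ENSSSCG00000037772, chromosome 4, 108891718 to 108907099), subunit b of the same stalk, had 174, 230 and 334 CPM in LFC and 157, 185 and 342 CPM in HFC, with a log2 fold change of -0.27 (SE 0.16).

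The subunits of the rotor had log2 fold changes of -0.12 to -0.24. ATP5C1 (ENSSSCG00000034086, chromosome 10, 63584296 to 63600396), the gamma subunit that forms the central shaft, had 156 ± 25.5 CPM (SD, n = 8) in LFC and 136 ± 32.5 CPM (SD, n = 8) in HFC, with a log2 fold change of -0.20 (SE 0.13). ATP5D, the delta subunit at the foot of the shaft, had a log2 fold change of -0.12 (SE 0.08). ATP5G1, ATP5G2 and ATP5G3 encode the same mature subunit c of the membrane ring, so the protein cannot tell which of them was used. Their log2 fold changes were -0.24, -0.16 and -0.17, with standard errors of 0.17, 0.13 and 0.17. Of the span of ATP5G3, 30.1% is shared with ATF2, which had a log2 fold change of -0.04 (SE 0.08).

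The alpha subunit, which alternates with beta in the head of the enzyme, had the fold change nearest to 0. ATP5A1 (ENSSSCG00000004499, chromosome 1, 95738264 to 95751358) had 533, 583 and 722 CPM in LFC and 552, 598 and 689 CPM in HFC. Only 3 of the 8 HFC pigs were under the LFC median, and its log2 fold change was -0.01 (SE 0.09) with an adjusted p of 0.972 (edgeR, Benjamini-Hochberg adjustment). On the log2(CPM + 1) scale its pigs deviated from the mean of the 16 by -0.18 to 0.26, against -1.11 to 1.04 for COX7C. LFC replicate 4, the highest LFC pig for 19 of the 26 genes, was the lowest LFC pig here. The remaining ATP synthase genes were ATP5I, subunit e at the dimer interface (log2 fold change -0.19, SE 0.17), and ATP5S, coupling factor B, which is not part of the core enzyme (log2 fold change -0.23, SE 0.16).

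**Figure D3:**
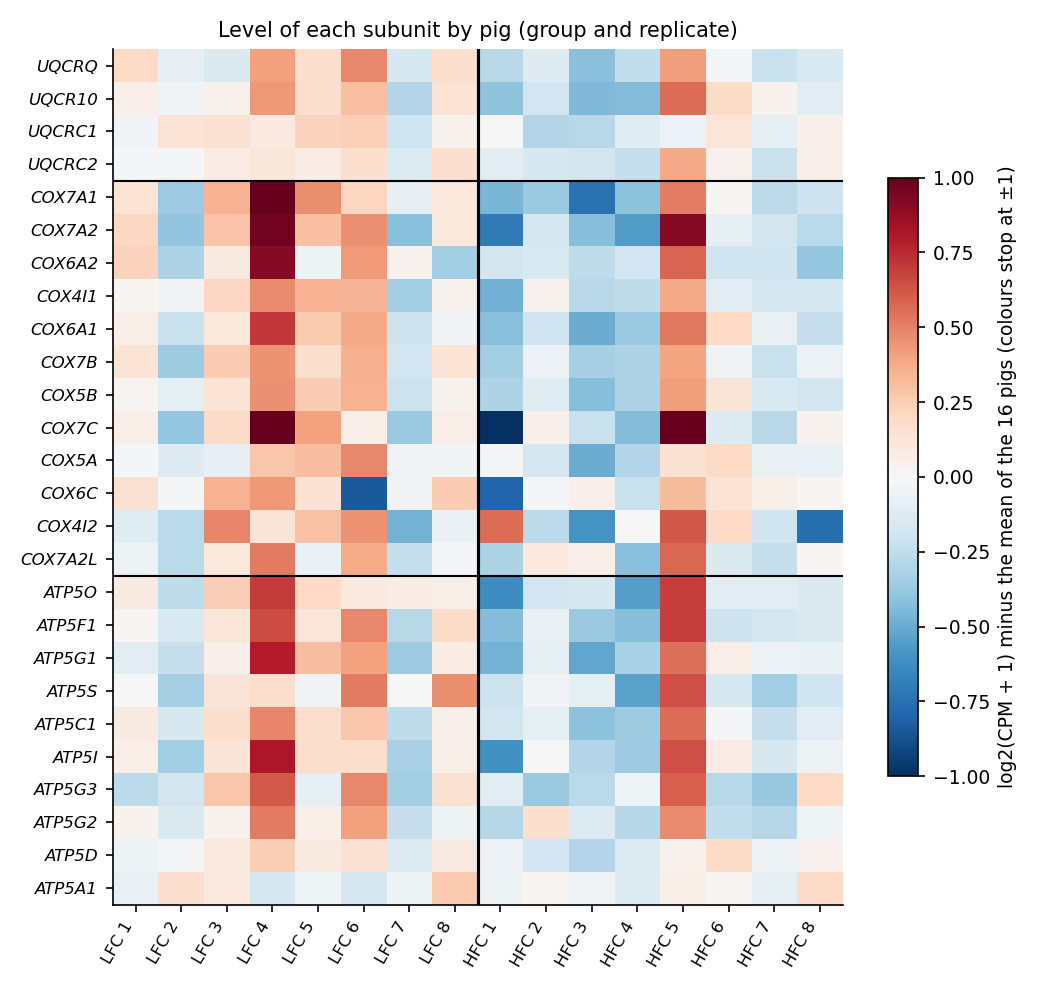
Level of each of the 26 subunits (rows, by complex) in each pig (columns, LFC left and HFC right of the line), as log2(CPM + 1) minus the mean of the 16 pigs, with colours that stop at ±1. HFC replicate 5 and LFC replicate 4 are red in nearly every row, and the row of ATP5A1 stays pale.

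The subunits of the 3 complexes were high or low together in a pig. In each pig the median deviation of the 26 genes from their means over the 16 pigs was between -0.21 (LFC replicate 7) and 0.48 (LFC replicate 4) in the LFC group, with a median of 0.10, on the log2(CPM + 1) scale. In the HFC group it was between -0.31 (HFC replicate 1) and 0.54 (HFC replicate 5), with a median of -0.15, and the other 7 HFC pigs reached at most 0.00082. HFC replicate 5, the library with the fewest counts, was the highest HFC pig for 22 of the 26 genes and above the 16-pig median for 25. The same pig was highest for complex III (0.40), complex IV (0.52) and ATP synthase (0.58).

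How many subunits reached a nominal p up to 0.05 depended on single pigs. Without HFC replicate 5, 18 of the 26 genes had a nominal p up to 0.05 in the lower direction, against 11.9% of all genes in the same fit, and the median log2 fold change was -0.32. COX7A1 was then at -0.65, and the smallest adjusted p, shared by genes of all 3 complexes, was 0.0926 (edgeR, Benjamini-Hochberg adjustment), still short of 0.05. Without LFC replicate 4, 1 of the 26 genes had such a p, against 2.26% of all genes, and the median was -0.14. With limma voom and sample quality weights, which keep all pigs and weight the divergent ones less, 12 of the 26 had a nominal p up to 0.05 in the lower direction, against 7.61% of all genes, and 0 passed the adjusted threshold (smallest adjusted p 0.139). Leaving out HFC replicate 5 was chosen for display here because of its position in the data, and its label gives no reason to leave it out.

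Other measures stood apart in the same pigs. The 73 genes for cytosolic ribosomal proteins, a list added after the values were seen, had their highest median deviations in LFC replicate 4 (0.87) and HFC replicate 5 (0.76), with the other HFC pigs at 0.075 or less. Their median log2 fold change between the groups was -0.27, with 73 of 73 below 0 against 48.9% of all genes tested. The slope of expression on genomic span, fitted over genes within a pig, in log2 units per 10-fold span, was lowest in LFC replicate 6 (-0.29) and LFC replicate 4 (-0.28) and in HFC replicate 5 (-0.22), meaning relatively more reads on short genes, and highest in HFC replicate 1 (0.22). Its median was -0.04 in LFC and 0.07 in HFC. With a correction for span, the median log2 fold change of the 26 genes was -0.16 and 25 were below 0, as were 5755 of the 10890 genes in that fit. The same limma fit without the correction gave a median of -0.22 with 26 below 0, as were 5507 of the 10890 genes. The part of span, RNA quality or depth in the difference was not tested beyond this.

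**Figure D4:**
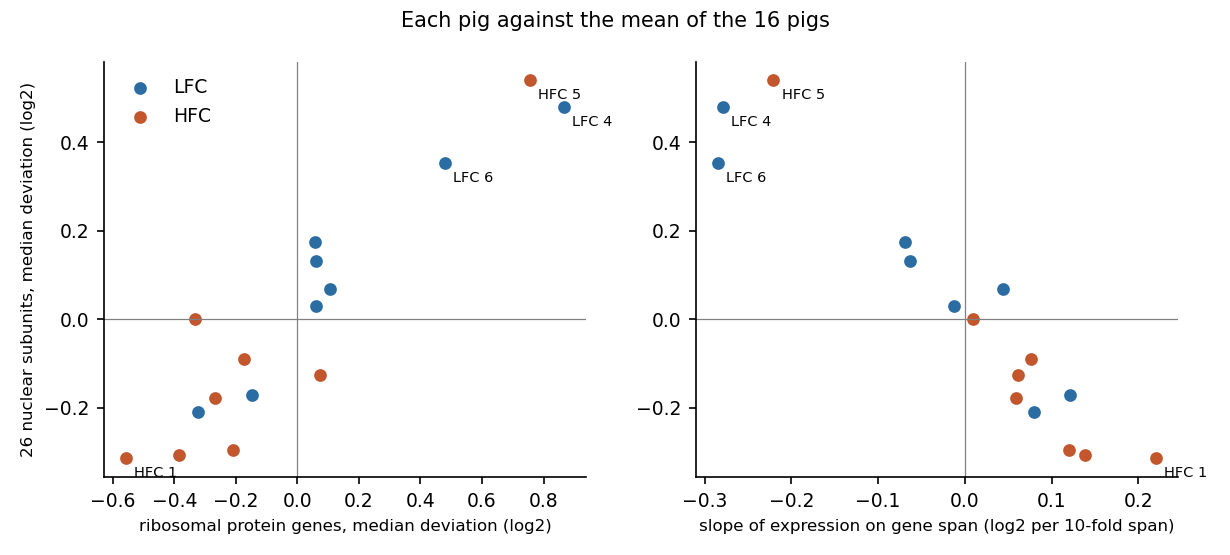
Median deviation of the 26 nuclear subunits in each pig (y axis, log2 against the mean of the 16 pigs) against that of the cytosolic ribosomal protein genes (left x axis, log2) and against the slope of expression on genomic span (right x axis, log2 per 10-fold span), one point per pig, blue LFC and orange HFC. LFC replicate 4 and HFC replicate 5 lie at the upper end for ribosomal protein genes (0.87 and 0.76) and at the lower end of the slope.

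Further subunits of the same 3 complexes do not match the rule because they have no symbol, or another one, in the deposited comparison. They were named from a reference annotation of the pig. All 11 that passed the count minimum had log2 fold changes below 0, against 48.9% of all genes tested, with a median of -0.24. A nominal p up to 0.05 was reached by 0, against 3.47% of all genes in the lower direction (edgeR's quasi-likelihood test). The values ran from -0.36 for ATP5L, subunit g at the dimer interface, to -0.09 for ATP5B, the catalytic beta subunit. ATP5B had 738 ± 43.8 CPM (SD, n = 8) in LFC and 691 ± 56.5 CPM (SD, n = 8) in HFC, and the SE of its log2 fold change was 0.08. The Rieske iron-sulphur protein UQCRFS1, which carries electrons within complex III, had 150 ± 30.8 CPM (SD, n = 8) in LFC and 135 ± 21.2 CPM (SD, n = 8) in HFC and a log2 fold change of -0.16 (SE 0.12). The inhibitor of ATP synthase, ATPIF1, had 159 ± 70.3 CPM (SD, n = 8) in LFC, 129 ± 73.0 CPM (SD, n = 8) in HFC and a log2 fold change of -0.31 (SE 0.28). COX6B2 was below the count minimum, and COX7B2, COX8B and UQCRHL were not analysed here. No gene was named UQCRB, so that subunit is not covered.

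Genes that assemble these complexes or carry electrons between them were compared in the same fit. The median log2 fold change was -0.12 for 6 assembly factors of complex III and -0.13 for 19 genes listed for complex IV assembly (NDUFA4, now counted as a subunit of complex IV, among them), with 5 and 13 below 0 and 0 at a nominal p up to 0.05 in either list. The 4 assembly factors of ATP synthase had a median of -0.19, with 4 below 0 and also 0 at that p. Of all genes tested, 48.9% were below 0 and 3.47% had such a p in that direction. Cytochrome c itself, CYCS, the mobile carrier between complexes III and IV, had 112 ± 19.5 CPM (SD, n = 8) in LFC and 88.6 ± 21.8 CPM (SD, n = 8) in HFC, with a log2 fold change of -0.34, an SE of 0.14 and an adjusted p of 0.401 (edgeR, Benjamini-Hochberg adjustment). CYC1, the cytochrome of complex III that hands it the electron, had a log2 fold change of -0.13 (SE 0.09).

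Complexes I and II feed electrons to complex III. Of 47 genes with an NDUF symbol, which are subunits and assembly factors of complex I and include NDUFA4 again, 43 had a log2 fold change below 0, against 48.9% of all genes tested. In that direction 7 had a nominal p up to 0.05, against 3.47% of all genes, and 0 in the other, against 8.01%. Their median was -0.23. The 4 subunits of complex II had a median of -0.18 and 0 such p. Among 10 regulators of mitochondrial genes, 1 had such a p in each direction. ESRRA, a nuclear receptor that activates respiratory genes, had 30.7 ± 4.68 CPM (SD, n = 8) in LFC and 24.7 ± 4.25 CPM (SD, n = 8) in HFC (log2 fold change -0.31, SE 0.12). YY1 was at 0.17 (SE 0.07), while PPARGC1A, NRF1, GABPA and TFAM were at -0.15, 0.02, 0.05 and -0.12. Of the 6 genes for supercomplex and cristae factors, 4 were below 0 and 2, HIGD2A and APOOL, had a nominal p up to 0.05, at -0.21 and -0.37.

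The mitochondrial partners of the same complexes had fold changes of the opposite sign. All 13 protein genes of the mitochondrial genome had log2 fold changes above 0, with a median of 0.41. A nominal p up to 0.05 was reached by 6, against 8.01% of all genes tested in the higher direction (edgeR's quasi-likelihood test). Among those of complexes III, IV and ATP synthase the log2 fold changes were 0.46 for CYTB, 0.35 for COX1, 0.14 for COX2, 0.19 for COX3, 0.19 for ATP6 and 1.33 for ATP8. Of these, CYTB and ATP8 had a nominal p up to 0.05. The ratio of 1 nuclear to 1 mitochondrial subunit within a complex was therefore computed in each pig, for 5 pairs, on log2(CPM + 1). Such a ratio barely depends on how libraries are scaled to each other.

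For UQCRC1 over CYTB, the ratio of complex III, the log2 values were -4.51, -4.10 and -3.60 (lowest, median, highest) in LFC and -5.01, -4.67 and -4.43 in HFC. Every HFC pig was under the LFC median, although the ranges overlapped. The means were -4.06 ± 0.33 (SD, n = 8) in LFC and -4.70 ± 0.21 (SD, n = 8) in HFC, a difference of -0.63 (exact two-sided permutation test, p = 0.000777, adjusted over the 5 pairs 0.00389). HFC replicate 5, the highest HFC pig for 22 nuclear subunits, was at -4.90 and thus low within its group. For COX4I1 over COX1 the values were -5.53, -5.13 and -4.14 in LFC and -6.04, -5.62 and -4.97 in HFC, a difference of -0.62 (exact two-sided permutation test, p = 0.00684, adjusted 0.0171), with 7 of 8 HFC pigs under the LFC median.

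Of the remaining 3 pairs, 1 was at the threshold. COX5A over COX2 differed by -0.32 (exact two-sided permutation test, p = 0.0802, adjusted 0.1002) and ATP5A1 over ATP6 by -0.20 (p = 0.270, also adjusted 0.270, same exact test). ATP5B over ATP8 differed by -0.91 (exact two-sided permutation test, p = 0.0300, adjusted 0.04999), but this rested in part on HFC replicates 4 and 5, at 0.63 and 0.94 beside 2.81 to 3.63 in the other HFC pigs. Without HFC replicate 4 the difference was -0.62 (exact permutation test, adjusted p = 0.0803) and without HFC replicate 5 it was -0.66 (adjusted p = 0.0787, exact permutation test), and the adjusted p was above 0.05 in 11 of the 16 fits that left out 1 pig. ATP8 shares bases with ATP6, so reads counted without strand may belong to either. That nuclear and mitochondrial genes differ in opposite directions was known from earlier results of these data when the pairs were chosen, and the ratios are not separate evidence for it.

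**Figure D5:**
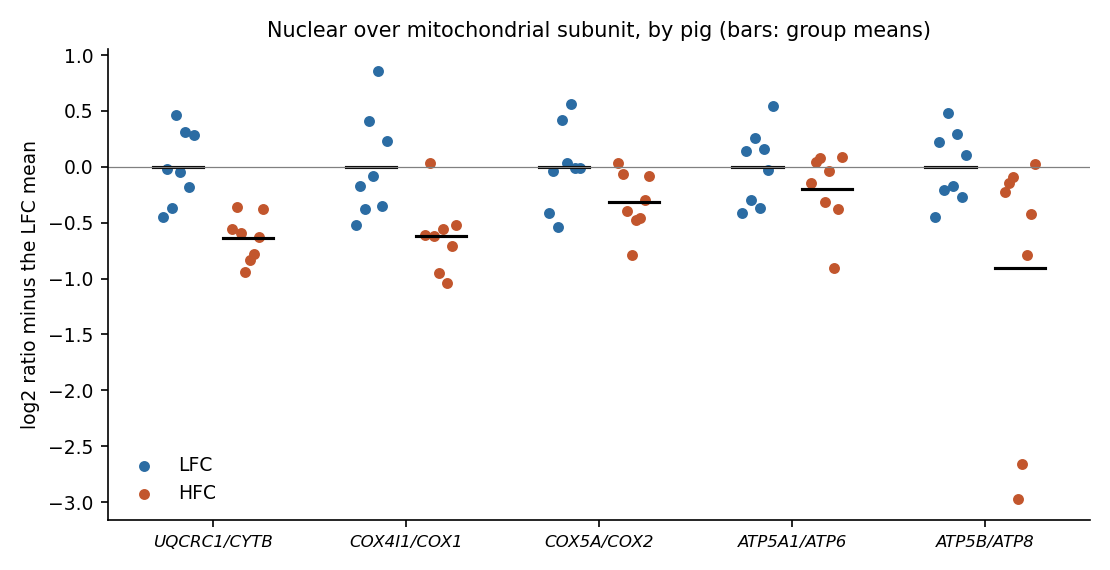
Log2 ratio of a nuclear to a mitochondrial subunit of the same complex in each pig (y axis, minus the LFC mean; 5 pairs on the x axis; blue LFC, orange HFC, 8 pigs each; bars are group means). The HFC means lie below the LFC means in all 5 pairs, by 0.63 for UQCRC1 over CYTB, with the widest spread for ATP5B over ATP8.

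Copies of the same subunit were compared in each pig in the same way, for 6 pairs. COX7A2L over COX7A2 was higher in HFC by 0.29 (exact two-sided permutation test, p = 0.0384, adjusted over the 6 pairs 0.230), with log2 values of 0.20, 0.50 and 0.83 (lowest, median, highest) in LFC and 0.31, 0.86 and 1.14 in HFC. HFC replicate 5 was the only HFC pig under the LFC median. The tissue-restricted copies differed from the widely expressed ones by less than the SD of either group. COX7A1 over COX7A2 differed by -0.11 (exact p = 0.318), COX6A2 over COX6A1 by 0.02 (exact p = 0.879) and COX4I2 over COX4I1 by 0.16 (exact p = 0.456), all permutation tests. For the genes of subunit c, ATP5G1 over ATP5G3 differed by -0.07 (exact permutation p = 0.597) and ATP5G2 over ATP5G3 by 0.0049 (exact permutation p = 0.967). Adjusted over the 6 pairs, these 5 p-values were between 0.895 and 0.967 (same exact tests).

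Markers of the cell types of the gland were measured in the same fit. The corticotroph markers POMC, TBX19 and CRHR1 had log2 fold changes below 0 in 3 of 3 genes, 2 of them at a nominal p up to 0.05, and the lactotroph markers PRL and DRD2 were above 0 in 2 of 2, both at that p. Over all genes tested, such a p was reached by 3.47% in the lower and 8.01% in the higher direction. Summed endothelial markers ran from 84.2 to 128 CPM in LFC and from 70.3 to 195 CPM in HFC, with 2 of 4 genes at a nominal p up to 0.05, higher in HFC. Summed pericyte markers ran from 64.7 to 126 CPM in LFC and from 55.7 to 207 CPM in HFC, with 1 of 5 at that p. Summed glial markers ran from 117 to 5793 CPM in LFC and from 107 to 3195 CPM in HFC. Somatotroph, macrophage and muscle markers had 0 genes at that p. The gonadotroph and thyrotroph list had 1 of 4, CGA at a log2 fold change of -0.55. TSHB was at -1.02, while FSHB and TRHR were at 0.14 and 0.40. The red cell list had 1 of 2, ALAS2 at -0.95, with HBB at -1.04. The part of cell composition in the levels of the nuclear subunits was not tested.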

How the data were processed

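RNA of whole pituitaries was sequenced as unstranded TruSeq v2 libraries. After trimming, the authors mapped reads against Sscrofa11.1 and Ensembl genes (RSEM, STAR, CASAVA 1.8.2, FastQC and DESeq2 are named in the submitters' processing notes) and deposited whole-number counts per gene and pig, without normalization. How RSEM's estimates became whole numbers is not given in the sources used here. The authors' deposited comparison also holds group means, a ratio, log2 values, p-values and adjusted p-values, none of which were used. Only its gene names and positions were taken.

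Genes with at least 10 counts in at least 8 of the 16 pigs (13667 of 18963 with any count) were tested with edgeR 4.0.16 in R 4.3.3 by its quasi-likelihood test, TMM scaling and Benjamini-Hochberg adjustment over all of them. Calls needed an adjusted p up to 0.05 with a 1.3-fold difference or more. Groups and replicate numbers were those of the labels, in which the feed conversion group (low_FCR or high_FCR) stands under a tag named shear force. Deposited symbols named 9548 of the genes tested, a reference table of Ensembl IDs 2845 and position (at least 50% of both spans) 449, and 825 had no name. Where both existed, symbols were the same in 96.2%. The common coefficient of variation was 0.25, and pairs of libraries differed by 11.4 to 85.9 chi-square units per degree of freedom. Ratios within a pig used a pseudocount of 1 CPM and exact permutation tests over all 12870 splits. COX4I2 alone among the 26 genes had fewer than 100 counts in any pig. The p-values set the group difference against the spread between these pigs.

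Alternatives were DESeq2 1.42.0, voom of limma 3.58.1 with quality weights, RLE and total-count scaling, no filter, edgeR's own filter, a replicate block, a correction for genomic span (exonic lengths were not used here), a pseudocount of 0.1 and each pig left out. A limma fit without the span correction was added after seeing the data, as its reference. The scripts for edgeR's test and the permutation test were tested on simulated data with known differences. The genes described by full values were the 3 with the smallest p and both extremes of each complex, the core and the tissue-restricted subunits and the ATP synthase inhibitor. COX6C, ATP5L, HIGD2A and APOOL were named after their values were seen. The subunits and lists were chosen with earlier results of these data known. Python 3.11.15, numpy 2.4.6, pandas 2.3.3 and matplotlib 3.10.9 were used for the rest.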

Additional observations from a re-analysis of the deposited data

Results flagged for a closer look

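In 18 of the 74 groups of 8 pigs examined, 1 pig lay far from the other 7 by Dixon's criterion, which chance does in about 1 in 20 groups. HFC replicate 5 was that pig in 13, always as the highest HFC pig. Its levels were 503.3 CPM for COX7C, 342 for ATP5F1, 274.5 for COX7A2L, 232.1 for ATP5O, 220.8 for COX7A2, 211.3 for ATP5C1, 186.2 for COX7B, 159.8 for UQCRC2, 141.3 for ATP5G1, 132.5 for ATP5I, 107.2 for UQCRQ, 33.27 for ATP5S and 31.78 for COX6A2. The next HFC pig had 253.9 CPM for COX7C, 200.7 for ATP5F1, 132.9 for ATP5O and 109.3 for COX7A2.

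LFC replicate 4 was the highest LFC pig and far from the others in 4 genes, with 501 CPM for COX7C, 234.3 for ATP5O, 148.8 for ATP5I and 75.54 for COX7A1, against 323.5, 170.5, 95.67 and 48.21 CPM in the next pig. The log2 ratio of ATP5A1 to ATP6 was lowest in HFC replicate 6, at -3.632, with the next HFC pig at -3.107. These values are not independent of each other, since the subunits moved together within a pig.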

How the results depend on the processing

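In 650 refits of single subunits over 25 settings the adjusted p stayed above 0.05 throughout (smallest 0.0926, edgeR without HFC replicate 5). Of these refits, 646 kept their direction. The exceptions were the log2 fold changes of ATP5A1, at 0.025 with the span correction and from -0.037 to 0.032 with each pig left out (above 0 without LFC replicate 3 or 8), and of COX4I2, from -0.26 to 0.012 (above 0 without HFC replicate 8). Genes called numbered 0 in edgeR and 29 in DESeq2. Subunits at a nominal p up to 0.05, lower in HFC, numbered 2 (3.47% of all genes in the same fit), against 5 with total-count scaling (5.52%), 4 with no filter (4.02%), 4 with edgeR's filter (4.41%), 4 in DESeq2 (4.78%) and 12 with voom (7.61%). With each pig left out they numbered 1 to 18, the 18 without HFC replicate 5 (11.9% of all genes), with 6 without LFC replicate 2 (6.48%) or 7 (6%) and 5 without HFC replicate 6 (5.14%), so the share of all genes moved as well. Among all genes with such a p, 69.8% were higher in HFC, against 46.0% with total-count scaling, 58.7% with no filter and 53.8% without HFC replicate 5. With each pig left out, the difference in log2 ratio ran from -0.027 to 0.075 for COX6A2 over COX6A1, from -0.072 to 0.047 for ATP5G2 over ATP5G3, from -0.39 to -0.24 for COX5A over COX2 (adjusted exact p = 0.0435 without LFC replicate 3) and from -1.04 to -0.62 for ATP5B over ATP8, whose adjusted p was then above 0.05 in 11 of 16. With a pseudocount of 0.1, ATP5B over ATP8 was at -0.92 (adjusted exact p = 0.0513). Replicate numbers do not pair the pigs: same-numbered deviations correlated from -0.292 to 0.351, 2 of 8 pairs over 0.1, and 0 LFC pigs correlated best with their own number. With the replicate block 3 subunits had a nominal p up to 0.05 (2.85% of all genes), COX4I1 over COX1 was at -0.62 (adjusted exact p = 0.0586) and ATP5B over ATP8 at -0.91 (adjusted exact p = 0.130).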
